A study of Mus musculus with 43 samples.

Results

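The genes described here build and use the lipid-linked oligosaccharide from which asparagine-linked (N-linked) glycans are made. They were taken from a pooled CRISPR knockout screen by gene symbol: all symbols that start with *Alg* and a digit or with *Stt3*, the genes *Dpm1*, *Dpm2*, *Dpm3*, *Rpn1*, *Rpn2*, *Pmm1* and *Pmm2*, and a list of single genes (*Dpagt1*, *Dolk*, *Dolpp1*, *Ddost*, *Dad1*, *Tusc3*, *Mpi*, *Gmppa*, *Gmppb*, *Dhdds*, *Nus1* and *Srd5a3*). The rule found 33 of the 2078 genes of the library, with 5 sgRNAs each, hence 165 of its 10640 sgRNAs. *Mpdu1*, which the rule also names, has no rows. A further 250 sgRNAs are nontargeting. The screen was made in OT-I Cas9 knock-in T cells, mouse CD8+ T cells with a transgenic receptor for ovalbumin, that had received the lentiviral library and were selected on its CD90.1 marker. An aliquot of the day of adoptive transfer is the reference, T0 (3 libraries). The other cells went into Cas9 knock-in mice with orthotopic KPC_OVA tumours, grown from a mouse line of pancreatic ductal adenocarcinoma engineered to express ovalbumin, and were sorted 7 days later under anti-PD-1 or control IgG. Sorted sites were primary tumour, lung, liver, peritoneal metastases, spleen, draining lymph node and nondraining lymph node. Each group has 3 samples, except the 2 liver groups with 2 each. The authors excluded 2 of the 43 samples, replicate 2 of liver anti-PD-1 and replicate 1 of metastases under IgG, which leaves 1 and 2 libraries in those groups. All groups, T0 included, carry Cas9 and the same library, and the 5 lung, liver, tumour, metastasis and spleen sites are called the organs below (26 libraries).

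N-linked glycosylation starts on dolichol, a long isoprenoid lipid of the endoplasmic reticulum (ER) membrane. Sugars are added to dolichol phosphate one after another, first from nucleotide sugars on the cytosolic face of the ER and then, after the chain has been flipped, from dolichol-phosphate mannose and dolichol-phosphate glucose in the lumen. The oligosaccharyltransferase (OST) complex then moves the finished chain to asparagines of new proteins, among them most receptors, adhesion molecules and cytokine receptors of a T cell.

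The deposited table gives an identifier for each sgRNA of the screen and no sequence. For 2 of the genes, *Dpm2* and *Alg12*, the study lists sequences of 3 guides each for its later single-cell screen. The paper describes the guides of that screen as newly designed. Whether any of them is also among the 5 guides of each gene used here is not given. The paper chose the genes of that later library from this screen, as those that both of its algorithms found enriched in some organ and treatment. Both genes were thus enriched by the paper's own tests, which differ from the limma calls below. They are shown because *Dpm2* is one of the members with a treatment difference below and *Alg12* stands for the luminal mannose steps. The spacer is in lower case and the PAM, the NGG that Cas9 needs beside its target, is in capitals and was read from the mouse genome GRCm38, on which each spacer was placed by exact match within its gene:
Dpm2 guide 1: tgatcaagctaacggcgacaAGG
Dpm2 guide 2: cttcacctactacaccacttGGG
Dpm2 guide 3: accgggacagaccaagcagtAGG
Alg12 guide 1: gtaccaaagaagactgacggTGG
Alg12 guide 2: aagcgagagcacataaaccaCGG
Alg12 guide 3: gggctgagtagaaataccacAGG
*Dpm2* lies on the plus strand of chromosome 2, from 32570858 to 32573579 in the GENCODE annotation. Its guide 1 matched chr2:32571241-32571260 on the minus strand, guide 2 matched chr2:32571262-32571281 on the plus strand and guide 3 matched chr2:32571209-32571228 on the plus strand. All 3 cut sites were in the coding part of exon 2. *Alg12* lies on the minus strand of chromosome 15, from 88805244 to 88819318. Its guide 1 matched chr15:88814502-88814521 on the minus strand with its cut in coding exon 5. Guide 2 matched chr15:88815892-88815911 on the plus strand with its cut in coding exon 3, and guide 3 matched chr15:88811487-88811506 on the plus strand with its cut in coding exon 7.

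The values are a signal per sgRNA and library, made by the authors from read counts that were normalized to the nontargeting sgRNAs and batch-corrected, so that depth is unknown. A gene score is the mean of log2(signal + 1) over the 5 sgRNAs of a gene, minus the same mean over the nontargeting sgRNAs of that library. A gene is called depleted or enriched where its score differed from T0 in limma with a p, adjusted over the 2078 genes after Benjamini-Hochberg, of 0.05 or less. A fall in sgRNA signal can come from fewer cells arriving, dividing or surviving, which cannot be told apart here, and editing at the target sites was not measured. Summed signal ran from 1788300 to 4228882 over the 41 libraries. An sgRNA was counted at its lowest value where more than 1 library of a replicate number shared its minimum, and it is in practice undetected there. In T0 at most 0.0188% of all sgRNAs lay at that value. That share was 2.78% to 24.1% in tumour, liver, metastasis and spleen, 10.5% to 42.6% in lung and 45.4% to 91.6% in lymph node. Of the 165 sgRNAs against the glycosylation genes, the share at the lowest value was 0 in T0, 10.3% to 44.8% in tumour, liver, metastasis and spleen, 29.1% to 63.6% in lung and 58.8% to 90.9% in lymph node. The peritoneal metastases anti-PD-1 replicate 2 library carries spleen as its tissue label against its title. It was used as metastases, and without it the count of members depleted over the organs was 20 as with it.

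Guides against most genes of the pathway were depleted from the transferred T cells in the organs. Over the mean of the 10 organ groups, 20 of 33 genes were depleted against T0, where 16.1% of all 2078 genes were depleted. The median change was -2.76 on the log2 scale for the 33 genes and -0.14 for all genes. None was enriched by limma (0.192% of all genes), also not at an unadjusted p of 0.05. For 17 members all 26 organ libraries lay below all 3 T0 libraries, against 14% of all genes, and no member had all of them above (0.144% of all genes). The 20 genes fell in each of the 3 replicate numbers taken on its own, and 9 of them (*Alg2*, *Alg13*, *Alg14*, *Dad1*, *Dhdds*, *Dpagt1*, *Gmppb*, *Nus1* and *Rpn1*) were called in all 10 groups. For neither count was the share of all genes computed. Genes that are not members, such as *Gfpt1*, *Hmgcs1* and *Mgat1*, were also called depleted in all 10 groups. The 10 groups share the T0 libraries and are not independent.

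Enzymes that supply dolichol were depleted in 4 of 5 cases, with a median change of -3.63. *Dhdds* and *Nus1*, which encode the subunits of the cis-prenyltransferase that makes the polyprenyl chain, fell by 4.83 ± 0.53 and by 4.24 ± 0.44 on the log2 scale (SE). The T0 scores of *Dhdds* were -0.16, 0.02 and 0.87, and its 26 organ scores ran from -6.26 to -1.49 with a median of -4.76. *Nus1* had T0 scores of -0.06, 0.05 and 0.93 and organ scores of -5.96 to -2.90, with a median of -3.93. For both genes the highest organ library was below the lowest T0 library. *Dolk*, the kinase that makes dolichol phosphate, fell by 3.63 (adjusted p = 4.44e-07). *Dolpp1*, the phosphatase that recycles dolichol from its pyrophosphate form, fell by 2.91 (adjusted p = 7.88e-06). The exception was *Srd5a3*, described as the reductase that turns polyprenol into dolichol: its T0 scores were 0.42, 0.45 and 0.70, its organ scores ran from -1.28 to 1.25, and its change of -0.25 ± 0.41 was not called.

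Of the 5 genes that make GDP-mannose, the donor of the cytosolic mannoses, *Gmppb* and *Pmm2* were depleted. *Gmppb* encodes the catalytic subunit of GDP-mannose pyrophosphorylase. Its T0 scores were -0.37, -0.34 and 0.41, its organ scores lay between -7.09 and -3.20, and it fell by 5.27 ± 0.49 (adjusted p = 9.08e-11). Its partner *Gmppa*, known as a regulatory subunit, had organ scores from -0.82 to 2.21 around T0 scores of 0.94, 0.97 and 1.21, and its change of 0.14 was not called. The score of *Gmppb* minus that of *Gmppa* was -1.14 ± 0.53 (SD) in T0 and -6.52 ± 1.07 in the organs, a difference of -5.38. All 26 organ libraries were below T0 in it. This was the smallest p that the exact two-sided permutation test over libraries can give (p = 0.000274, adjusted p = 0.000684 over 5 pairs).

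The phosphomannomutases *Pmm1* and *Pmm2* turn mannose-6-phosphate into mannose-1-phosphate. *Pmm2* fell by 2.76 ± 0.66 (adjusted p = 0.00151), whereas the change of *Pmm1* was -0.34 ± 0.53 and not called. The difference between them moved by -2.41 from T0 to the organs (adjusted p = 0.0144, exact two-sided permutation test), and it was below all T0 libraries in 23 of 26 organ libraries. Without replicate 1, replicate 2 or T0 replicate 2 this call was lost (adjusted p = 0.0714, 0.0950 and 0.0761, exact permutation). With the median of the guides, *Pmm2* itself changed by -3.13 and was not called (adjusted p = 0.108). One of the 5 *Pmm2* guides did not follow the others: it changed by 0.31, while the changes of the other 4 ran from -3.99 to -3.36. *Mpi*, which makes mannose-6-phosphate from fructose-6-phosphate, changed by -0.65 ± 0.44 and was not called (adjusted p = 0.647). Its organ scores overlapped T0, although 22 of 26 were below every T0 library.

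All 6 genes of the cytosolic steps were depleted, with a median of -4.91. *Dpagt1*, which encodes the enzyme that places the first N-acetylglucosamine on dolichol phosphate and is the target of tunicamycin, had T0 scores of -0.69, -0.61 and 0.37. In primary tumour it scored -6.65, -5.70 and -6.59 under IgG and -6.34, -5.98 and -6.37 under anti-PD-1. In spleen the scores were -6.99, -4.01 and -5.20 under IgG and -7.38, -6.42 and -4.21 under anti-PD-1. No organ library came near T0, and *Dpagt1* fell by 5.53 ± 0.50 (adjusted p = 5.42e-11).

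The second N-acetylglucosamine is added by a complex of *Alg13*, its catalytic part, and *Alg14*, its membrane anchor. *Alg13* fell by 5.59 ± 0.41 (adjusted p = 7.36e-13), with T0 scores of -0.95, -0.62 and 0.22 and organ scores of -7.36 to -4.40. *Alg14* fell by 4.11 ± 0.49 (adjusted p = 1.69e-08), with T0 scores of -0.71, -0.38 and 0.45 and organ scores of -5.67 to -2.03. *Alg14* minus *Alg13* was 0.24 ± 0.01 (SD) in T0 and 1.76 ± 0.92 in the organs. This shift of 1.52 passed the exact permutation test (adjusted p = 0.0119), with 25 of 26 organ libraries above T0, and was lost without replicate 1 or 2 (adjusted p = 0.0714 and 0.0877). Their guides differed too: the changes of the 5 *Alg13* guides ran from -6.18 to -4.12, whereas those of 3 *Alg14* guides ran from -6.29 to -5.34 and the other two were -2.09 and -1.18.

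The mannosyltransferases of the cytosolic face followed. *Alg1* adds the first mannose and fell by 4.29 ± 0.56 (adjusted p = 1.23e-07), from T0 scores of 0.31, 0.38 and 1.15 to organ scores of -6.22 to -2.25. *Alg2* adds the next ones and had the largest fall of the 33 genes, with a change of -5.64 ± 0.53 (adjusted p = 1.59e-10), rank 21 of 2078 genes from the lowest change. Its T0 scores were -0.13, 0.48 and 1.19, and its lung scores were -5.23, -5.88 and -5.24 under IgG and -5.40, -6.15 and -4.94 under anti-PD-1. *Alg11*, which adds the last mannoses on this face, fell by 3.76 ± 0.47 (adjusted p = 3.78e-08). Its guides split, with changes of -6.16, -6.05 and -4.67 in 3 and of -1.14 and -0.80 in the other two.

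For the luminal steps and their donors, the genes that make or use dolichol-phosphate mannose and those that make or use dolichol-phosphate glucose stood apart. Dolichol-phosphate mannose synthase consists of the catalytic *Dpm1* and its membrane partners *Dpm2* and *Dpm3*. The changes were 0.34 ± 0.55, 0.68 ± 0.40 and 0.72 ± 0.43 in that order, none called over the organs, and all 3 signs turned when the signal was not centred on the nontargeting sgRNAs. *Alg3*, *Alg9* and *Alg12* add the luminal mannoses. Their changes were -0.39 ± 0.68, 0.45 ± 0.39 and 0.16 ± 0.54, and none was called or had an unadjusted p under 0.05 in limma. The signs of *Alg9* and *Alg12* turned without centring. *Alg12* had T0 scores of 0.14, 0.26 and 0.74 and organ scores from -1.71 to 2.53, which overlapped T0 in both directions.

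By contrast, the gene of dolichol-phosphate glucose synthase and the 3 luminal glucosyltransferase genes measured were all depleted. *Alg5*, the synthase, fell by 2.83 ± 0.59 (adjusted p = 0.000251), from T0 scores of 0.06, 0.60 and 0.64 to organ scores of -4.67 to -0.85. *Alg6*, which adds the first glucose, fell by 3.04 ± 0.62 (adjusted p = 0.000178), from T0 scores of -0.17, -0.14 and 0.62 to organ scores of -5.88 to -0.53. *Alg8* adds the second and fell by 2.49 ± 0.53 (adjusted p = 0.000346). *Alg10b* adds the third and fell by 2.04 ± 0.61 (adjusted p = 0.0126). In all 4 genes each of the 26 organ libraries was below each T0 library, but the falls were smaller than in the cytosolic steps, and *Alg10b* was called in only 2 of the 10 groups. With the median of the guides, the changes of *Alg6*, *Alg8* and *Alg10b* were -2.85, -1.47 and -1.82 and were not called (adjusted p = 0.113, 0.527 and 0.428). *Alg10b* was also lost without replicate 1 or 2 (adjusted p = 0.0964 and 0.145) and without T0 replicate 1 or 3 (adjusted p = 0.0536 and 0.0953). The split into a mannose and a glucose branch was drawn after the values were seen and was not tested.

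Of the 7 OST genes, 4 were depleted. All 4 encode subunits that both forms of the complex share. *Rpn1*, ribophorin I, fell by 4.76 ± 0.49 (adjusted p = 1.09e-09), from T0 scores of -0.21, -0.11 and 0.70 to organ scores of -6.21 to -3.12. *Dad1*, the defender against cell death, fell by 3.67 ± 0.55 (adjusted p = 1.44e-06), from T0 scores of -0.06, 0.19 and 0.42 to organ scores of -5.13 to -1.03. *Ddost* fell by 2.78 ± 0.57 (adjusted p = 0.000204), and 25 of its 26 organ libraries were below T0. *Rpn2*, ribophorin II, fell by 1.81 ± 0.42 (adjusted p = 0.000961), and 24 of 26 were below T0. With the median of the guides the changes of *Ddost* and *Rpn2* were -2.57 and -1.40 and were not called (adjusted p = 0.0905 and 0.109). *Rpn2* fell less than *Rpn1* in every organ library: their difference was -0.17 ± 0.39 (SD) in T0 and 2.83 ± 1.37 in the organs, and this shift of 3.003 had the smallest p possible (exact two-sided permutation, p = 0.000274, adjusted p = 0.000684).

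The catalytic OST subunits *Stt3a* and *Stt3b* act in separate complexes, one mostly during and one also after translation. Neither was called over the organs. *Stt3a* changed by 0.58 ± 0.43 and *Stt3b* by 0.41 ± 0.41, and both signs turned without centring. The difference of *Stt3a* minus *Stt3b* moved by 0.21 (adjusted p = 0.737, exact permutation), while its organ libraries ran from -2.25 to 1.93, so the libraries leave a wide range for it. *Tusc3*, an oxidoreductase subunit of the *Stt3b* complex, changed by -0.08 ± 0.47 and was not called.

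The 5 guides of a gene gave the same picture. Nontargeting sgRNAs had changes of -1.29 at their 5th and 1.004 at their 95th percentile. Of the 100 guides against depleted members 89 were below that 5th percentile, as were 1 of the 65 guides against the other 13 members and 2038 of all 10390 targeting guides. All 5 guides were below it for 11 genes, and at least 4 for 18. *Alg10b* and *Alg11* had 3. As an example of the signal itself, the *Alg13* guide s_05528 had 147, 164 and 284 in T0, against an organ median of 0.0704 and an organ highest of 42.4, and was at the lowest value in 22 of 26 organ libraries. The *Dpagt1* guide s_01129 had 159, 178 and 214 in T0, with an organ median of 0.205 and an organ highest of 21.7. By comparison the *Dpm2* guide s_01143 had 514, 564 and 696 in T0, an organ median of 542 and an organ highest of 5771, and was never at the lowest value. Guide effects follow the gene's change by construction, so they describe the spread and are no further test.

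The count of depleted members ran from 11 to 19 over the 10 groups. In primary tumour 19 were depleted under IgG and 18 under anti-PD-1, where 14.3% and 14.4% of all genes were. In lung it was 19 under each treatment (16.2% and 17.2% of all genes) and in spleen 16 under each (13.6% and 14%). Peritoneal metastases had 19 under IgG and 18 under anti-PD-1 (13.7% and 15.3%). Liver had 17 under IgG (13.1%) and 11 in the single anti-PD-1 library (9.58%), which is assumed to vary like the other groups. In its group comparison liver anti-PD-1 did not call *Alg1*, *Alg11*, *Dolk* or *Dolpp1*, which all other 9 groups called. Changes of these 4 genes there were -3.13, -2.59, -1.76 and -1.12. Liver anti-PD-1 rests on 1 library, and the difference of its count from other groups was not tested. With the median of the guides, fewer genes of the whole library were depleted too. The counts under IgG and anti-PD-1 were then 6 and 8 in tumour (5.49% and 7.36% of all genes). They were 9 and 7 in spleen (6.5% and 7.07%) and 8 and 11 in metastases (6.69% and 8.61%). In lung they were 16 and 14 (12.6% and 11.3%), and liver IgG had 10 (7.07%). With the mean of the guides but without replicate 2, lung anti-PD-1 had 12 (14.6% of all genes).

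A few members were enriched in single groups. *Stt3a* rose against T0 by 1.87 ± 0.57 in spleen IgG (adjusted p = 0.0186; 0.289% of all genes were enriched) and by 1.83 ± 0.57 in spleen anti-PD-1 (adjusted p = 0.0214; 0.433% of all genes). In lung IgG *Stt3a* rose by 1.74 (adjusted p = 0.0269) and *Dpm3* by 1.62 (adjusted p = 0.0435), where 1.68% of all genes were enriched. *Dpm2* rose by 1.96 ± 0.53 in spleen anti-PD-1 (adjusted p = 0.00650) and by 1.89 ± 0.53 in lung anti-PD-1 (adjusted p = 0.00741; 0.962% of all genes). All of these calls were lost with the nontargeting median in place of the mean for centring, or with no centring. Without any 1 of the T0 libraries, the calls of *Stt3a* and *Dpm3* were lost and those of *Dpm2* held. The *Dpm2* call in lung anti-PD-1 was lost without replicate 1 and with only the groups compared, that in spleen anti-PD-1 without replicate 2, and both without replicate 3 and with all libraries in 1 fit. No member was enriched by limma in tumour IgG (0% of all genes), tumour anti-PD-1 (0.144%), metastases IgG (0.0481%), metastases anti-PD-1 (0.144%), liver IgG (0.192%) or liver anti-PD-1 (0.289%). At an unadjusted p under 0.05 the number higher was 1 in metastases anti-PD-1, 1 in liver anti-PD-1 and 0 in the other 4 groups.

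Organs differed in *Rpn2* and *Stt3a* by the moderated F-test (adjusted p = 0.00274 for each), a call that 9 genes passed (0.433% of all genes). For *Rpn2* the mean change was -3.12 in lung, -2.28 in metastases, -1.74 in tumour, -1.38 in liver and -0.52 in spleen. Its scores were -4.67, -4.53 and -3.64 in lung IgG but -0.14, -0.32 and -2.08 in spleen IgG, beside -0.15, -0.07 and 0.08 in T0. Spleen libraries thus mostly lay near T0 and the lung ones far below. The *Stt3a* scores were 1.20, 1.98 and 2.12 in spleen IgG and 0.99, 2.51 and 1.66 in spleen anti-PD-1. They were -0.43, 0.27 and -0.11 in tumour IgG and -0.46 and -1.04 in metastases IgG, beside -0.10, -0.06 and -0.14 in T0. All spleen libraries were therefore above all tumour libraries, with mean changes of 1.85 and -0.09. Without lung, a choice made after seeing the data, *Rpn2* no longer passed (adjusted p = 0.0982), whereas *Stt3a* did (adjusted p = 0.00166). Without replicate 2 neither passed (adjusted p = 0.439 and 0.246), nor without replicate 3 (0.429 and 0.885), and without replicate 1 *Rpn2* did not (0.133). The share of undetected sgRNAs, which reached 42.6% in lung, also differs between organs, and its part in the result was not tested. The authors had corrected the signal for batch effects between organs, and the part of that correction was not tested either.

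Anti-PD-1 differed from IgG, averaged over the 5 organs, in *Dpm2* and *Rpn2* among the 33 genes. Both were higher under anti-PD-1, as were 0.866% of all genes. No member was lower by limma (0.481% of all genes). At an unadjusted p under 0.05, 2 members were lower and 7 higher, beside 141 and 188 of the 2078 genes. *Dpm2* scored 0.49, 0.24 and 0.44 in tumour IgG against 1.04, 1.26 and 0.80 in tumour anti-PD-1. In lung it scored 0.29, -0.10 and 0.97 under IgG against 2.54, 1.42 and 3.55 under anti-PD-1. In spleen the scores were 1.68, 1.10 and 1.94 against 2.16, 3.20 and 2.34, in metastases 0.08 and 1.09 against 1.37, 1.33 and 1.498, and in liver 0.38 and 1.21 against 1.67. In each of the 5 organs the anti-PD-1 libraries were all above the IgG ones, and the mean difference was 1.09 ± 0.27 (adjusted p = 0.0336).

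For *Rpn2* the mean difference was 1.18 ± 0.28 (adjusted p = 0.0270), from a mean change of -2.40 under IgG to -1.22 under anti-PD-1. The difference was largest in lung, at 2.24, where the anti-PD-1 scores were -2.02, -2.17 and -1.93. It was 1.35 in liver, 1.19 in metastases, 0.57 in spleen and 0.56 in tumour. Tumour scores of -1.99, -2.04 and -2.18 under IgG and -2.21, -1.01 and -1.30 under anti-PD-1 overlapped. Without lung the differences were 0.83 for *Dpm2* (adjusted p = 0.0733) and 0.92 for *Rpn2* (adjusted p = 0.117). Leaving out any one replicate number ended both calls, with adjusted p of 0.0998, 0.150 and 0.104 for *Dpm2* and 0.0516, 0.0618 and 0.270 for *Rpn2* in the order of the number left out. Both calls were also lost with the median of the guides (adjusted p = 0.185 for *Dpm2* and 0.188 for *Rpn2*), with nontargeting median centring (0.0695 and 0.0656), with no centring (0.144 and 0.146) and with all libraries in 1 fit (0.624 and 0.412). Under these 4 settings the differences ran from 1.06 to 1.12 for *Dpm2* and from 1.15 to 1.35 for *Rpn2*.

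In the lymph nodes, fitted on their own with T0, limma called no member in any of the 4 groups in either direction and no gene of the library (0%). On simulated data this fit did not recover the changed genes, so the absence of calls does not show that genes were unchanged. At an unadjusted p under 0.05, 9, 7, 5 and 4 members were lower in draining IgG, draining anti-PD-1, nondraining IgG and nondraining anti-PD-1, and 0, 2, 0 and 3 were higher. Of all 2078 genes, 8.23%, 8.57%, 4.67% and 3.99% were lower and 1.97%, 2.69%, 2.36% and 2.07% higher by the same measure. The calls depended on which libraries shared a fit. With only T0 and draining IgG, 6 members (*Alg2*, *Alg5*, *Dad1*, *Ddost*, *Dhdds* and *Nus1*) were depleted there, as were 5.15% of all genes. With all libraries in 1 fit, *Alg13*, *Dad1* and *Nus1* were depleted in draining IgG (2.65% of all genes) and *Alg1* and *Dhdds* in draining anti-PD-1 (1.25%), where *Alg12* was enriched (0.866%). The mean change over the 4 groups was -2.58 for *Alg2*, -2.31 for *Dhdds* and -2.13 for *Dpagt1*, beside 1.78 for *Alg12* and 2.32 for *Dpm3*. Single libraries reached high scores: *Dpm2* scored 2.46, 5.05 and 4.70 in nondraining anti-PD-1, against -0.65, 1.07 and -0.08 in nondraining IgG. In these libraries 45.4% to 91.6% of sgRNAs were at the lowest value, and the part of that share in the counts was not tested.

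Neighbouring steps of the pathway, from lists of genes that are not members, gave these counts over the organs, where 16.1% of all genes were depleted and 379 were lower and 12 higher at an unadjusted p under 0.05. Of the isoprenoid supply genes, *Hmgcs1*, *Mvk*, *Pmvk*, *Mvd*, *Idi1*, *Fdps* and *Ggps1* were depleted, with a median of -4.35 over these 7. *Hmgcs1*, an enzyme of the mevalonate pathway, fell by 5.58, and *Idi1*, the isopentenyl-diphosphate isomerase, fell by 2.76. Synthesis of UDP-N-acetylglucosamine was depleted in 4 of 5 genes with a median of -3.41: *Gfpt1*, its rate-limiting amidotransferase, fell by 5.20, while the paralogue *Gfpt2* changed by 0.36 and was not called. For the steps after transfer of the chain, 3 of 7 genes on the trimming list were depleted. Those that trim were the glucosidase genes *Mogs* (fell by 3.28) and *Ganab* (fell by 3.23). The other was *Mgat1*, which does not trim but starts complex glycans, and fell by 5.39. The 4 mannosidase genes *Man1a*, *Man1a2*, *Man1b1* and *Man1c1* had changes of -0.42 to 0.61 and were not called. In the glycosylphosphatidylinositol (GPI) anchor pathway, which also takes its mannoses from dolichol-phosphate mannose, 0 of 10 genes were called by limma and 4 had an unadjusted p under 0.05, of which 3 were lower and 1 higher, with changes of -1.30 for *Pigt* to 1.03 for *Pigv*.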

How the data were processed

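The integrated sgRNA was read from genomic DNA of sorted cells in 43 samples, of which 41 have values. The authors deposited a signal per sgRNA: reads were counted with MAGeCK-VISPR and normalized to 250 nontargeting sgRNAs. ComBat then corrected for batch effects between organs, as the methods state. How this correction changed differences between organs, or between organs and T0, was not tested. As the signal is no longer in whole reads, a count test was not possible, depth is unknown, and no counting interval is given. Fold changes are on the log2(signal + 1) scale and understate changes at low signal. For each sgRNA, the lowest value within a replicate number was counted where more than 1 library shared it (within a relative tolerance of 1e-09). The count of sgRNAs at that value in a library gives its share of undetected sgRNAs.

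Gene scores, centred on the mean of the nontargeting sgRNAs, were fitted with limma 3.58.1 in R 4.3.3, 1 mean per group, T0 with the 10 organ groups (29 libraries) and T0 with the 4 lymph node groups (15 libraries) apart, with Benjamini-Hochberg adjustment over 2078 genes. The methods state MAGeCK mle on counts, which these values do not allow. The mean of the 10 organ groups weights groups equally. The 5 pairs were tested by exact two-sided permutation of 3 T0 and 26 organ libraries (3654 arrangements). Libraries of 1 replicate number may share an experiment, which the labels do not state, and would then not be fully independent. Permuted within replicate numbers (880 arrangements), the adjusted p was 0.00284 for *Gmppb* minus *Gmppa* and for *Rpn2* minus *Rpn1*. It was 0.0114 for *Pmm2* minus *Pmm1*, 0.00947 for *Alg14* minus *Alg13* and 0.727 for *Stt3a* minus *Stt3b*. The libraries come from 3 sequencing experiments, and how many mice a library pools is not given in the sources used here, so that p-values measure the spread between libraries. Replicate numbers were not used to pair the samples in the main fits.

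Members and lists were chosen with earlier results of these data known. Each member is named, and other genes only from the lists of pathway steps. *Prkcsh*, on the trimming list, has no rows, and 1 gene of the isoprenoid list is not reported here. The scripts were tested on simulated data, where the organ fit recovered the changed genes and the lymph node fit did not. Alternatives were a pseudocount of 10, the median of sgRNAs, nontargeting median centring, no centring, leaving out the lowest 10% of sgRNAs by T0 signal, lowest values set to 0, the replicate block, 1 fit of all libraries, only the groups compared, library weights, and each replicate number and each T0 library left out. Lung, liver and the conflicting metastasis library were left out in turn after seeing the data. The single-cell screen was not analysed here.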

Additional observations from a re-analysis of the deposited data

Results flagged for a closer look

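The test of the difference among the 5 organs passed for *Rpn2* and for *Stt3a*, each at a limma adjusted p of 0.00274. For *Rpn2* the fall was smallest in spleen and largest in lung, and for *Stt3a* the score was higher in spleen and lung than in tumour and metastases.

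The test of anti-PD-1 against IgG over the 5 organs passed for *Dpm2*, with a difference of 1.09 on the log2 scale, higher in 5 of 5 organs, and for *Rpn2*, with a difference of 1.18, also higher in 5 of 5 organs. Both treatment calls were lost without any 1 replicate number, and also with the median of sgRNAs, nontargeting median centring, no centring or all libraries in 1 fit. The organ call of *Rpn2* was lost without any 1 replicate number too, and that of *Stt3a* without replicate 2 or 3 but not without replicate 1. With all libraries in 1 fit both organ calls were lost (limma adjusted p = 0.181 for *Rpn2* and 0.203 for *Stt3a*). With library weights that of *Rpn2* was lost as well (limma adjusted p = 0.0699). No cause was tested for any of them.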

How the results depend on the processing

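Of the 20 depleted genes, 14 were called over the organs under all 18 alternatives run for that comparison, none changed sign, and the count ran from 14 to 21. The exceptions were *Alg10b*, *Alg6*, *Alg8*, *Ddost*, *Pmm2* and *Rpn2*, lost with the median of sgRNAs, and *Alg10b* in 4 leave-outs. The median of sgRNAs also lowered the counts of depleted members in single groups, as it did for all genes. In tumour IgG and anti-PD-1 they were 6 and 8 (5.49% and 7.36% of all genes), in spleen 9 and 7 (6.5% and 7.07%). In metastases they were 8 and 11 (6.69% and 8.61%), and in liver IgG 10 (7.07%). This setting left 0 members with a treatment difference (0.0481% of all genes lower and 0% higher). It gave 1.24 for *Alg14* minus *Alg13* (adjusted p = 0.362, exact permutation). Without centring, the median of all genes moved from -0.14 to -1.14 over the organs, and to between -5.97 and -5.23 in the lymph nodes, where 31, 30, 33 and 31 members (97% to 99.1% of all genes) were called lower. Lung IgG then had 29 depleted members, where 73.8% of all genes were depleted. Among organs 5 members differed, for which no share of all genes is given under this setting. No member (0) was enriched in lung or spleen (at most 0.0481% of all genes). None (0) differed by treatment (0.241% of all genes lower and 0.144% higher). Relative to -1.14, the values that turned sign were -0.84 for *Alg12*, -0.55 for *Alg9*, -0.66 for *Dpm1*, -0.32 for *Dpm2*, -0.28 for *Dpm3*, -0.86 for *Gmppa*, -0.42 for *Stt3a* and -0.58 for *Stt3b*. With nontargeting median centring, relative to a median of all genes of -0.55, they were -0.25 for *Alg12*, -0.073 for *Dpm1* and -0.27 for *Gmppa*, and enriched and treatment calls were 0. *Srd5a3* turned to 0.022 and *Tusc3* to 0.0998 with the median of sgRNAs. *Tusc3* turned to 0.0057 without the conflicting metastasis library and to 0.045 without liver. All libraries in 1 fit left 0 enriched members in lung and spleen, 0 treatment and 0 organ differences, and gave 3 depleted in draining IgG and 2 depleted and 1 enriched in draining anti-PD-1. Library weights gave 4 enriched over the organs (28.3% of all genes were depleted and 5.73% enriched then), 17 depleted and 3 enriched in liver anti-PD-1, 2 enriched in spleen IgG, and 1 in each of lung IgG, metastases anti-PD-1, tumour anti-PD-1 and nondraining anti-PD-1. With only the groups compared, 6 members were depleted in draining IgG (5.15% of all genes). Then 2 were enriched in spleen IgG (0.577%), 1 in metastases anti-PD-1 (0.481%) and 0 in lung (0.818% under IgG, 1.11% under anti-PD-1). Under both settings the counts of liver anti-PD-1 are not given, as it rests on 1 library. A pseudocount of 10 left 1 enriched in lung IgG (0.866% of all genes). Leaving out the lowest 10% of sgRNAs gave 4 enriched in lung anti-PD-1 (1.35% of all genes). It gave -2.003 for *Pmm2* minus *Pmm1* (adjusted p = 0.121, exact permutation). Without lung 0 members differed by treatment and 1 among organs. The cause was not tested.

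With 1 replicate number or 1 T0 library left out, enriched members numbered 0 to 1 in lung IgG and in spleen IgG and 0 to 2 in lung anti-PD-1 and in spleen anti-PD-1, and treatment and organ differences 0 to 2 each. Depleted members of lung anti-PD-1 ranged from 12 (without replicate 2) to 19. *Alg14* minus *Alg13* ranged from 1.35 to 1.81, *Pmm2* minus *Pmm1* from -2.87 to -1.75, *Alg12* from -0.32 to 0.64 and *Tusc3* from -0.17 to 0.044. The replicate block changed no call over the organs (20 depleted, 0 enriched), by treatment (2) or among organs (2). Deviations of same-numbered samples from their group means had a median correlation of -0.01 in the organs, with 39 of 118 pairs over 0.1. In the lymph nodes the median was -0.06. As the signal had been batch-corrected before, these values cannot show that same-numbered samples are unrelated. Depth is unknown, and the part of undetected sgRNAs in the lymph node counts was not tested.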
